A study of Mus musculus and Homo sapiens with 15 samples.

Results

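In mouse brain sections treated with the editing enzyme but no antibody, 1078 clusters of C-to-U edits in introns met none of the clusters found with the antibody to RBFOX2. They were chosen from the 4401 confident edit clusters that remained in the enzyme-only list after removal of background clusters. Of these 4401 clusters, 3257 carry an exon label and 1144 (26.0%) do not. A member is one of the 1144 that shares no base on its strand with any of the 5177 confident RBFOX2-INSCRIBE clusters before their own cleaning. The 1078 members make up 94.2% of the intronic clusters, and the remaining 66 overlapped an RBFOX2-INSCRIBE cluster. The choice rests on where edits were called, so the numbers of edits and of called clusters inside the members are given below as a description, with no test.

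In INSCRIBE, fixed cells or tissue are incubated with an antibody against an RNA-binding protein and then with purified APOBEC1, a cytidine deaminase, joined to a nanobody that holds on to the antibody. The 9 brain libraries fall into 3 groups of 3. RBFOX2-INSCRIBE sections received an antibody to RBFOX2 and the fusion enzyme, enzyme-only sections received the enzyme without the antibody, and buffer-only sections received neither. All came from wild-type female C57BL/6J mice 2 months old, as whole brain sections labelled as fixed with paraformaldehyde (PFA), and each replicate was 1 coronal slice. The study's methods name 2 mice, while its reporting summary states that only 1 was needed. Slices therefore share animals, the p-values measure only the spread between slices, and the labels do not tie a slice to an animal. The control for the antibody is its absence, not an unrelated antibody.

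Introns are removed from the primary transcript in the nucleus, and reads inside them come mostly from RNA that is not yet spliced. APOBEC1 deaminates cytidine in RNA and prefers an A or U just before the C. RBFOX2 is a nuclear splicing regulator of neurons and other cells that binds UGCAUG, often in introns beside the exons it controls. Long introns are common in neuronal genes for channels, receptors and synaptic adhesion.

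The sequences below show what the members with the most edits looked like. They are the reference sequence of the RNA strand, 5′ to 3′, from RefSeq's GRCm38.p6, and each capital C is a cytidine that at least 1 enzyme-only library listed as edited. The first 5, each from another gene, are among the members with the highest numbers of edited reads and lie in introns of Cnot2 (chr10:116535401-116535580, minus strand), Phactr1 (chr13:42711021-42711260, plus), Zmiz1os1 (chr14:25363782-25363856, minus), Celf2 (chr2:6951966-6952055, minus) and Gm12111 (chr11:32910154-32910243, minus).
Cnot2: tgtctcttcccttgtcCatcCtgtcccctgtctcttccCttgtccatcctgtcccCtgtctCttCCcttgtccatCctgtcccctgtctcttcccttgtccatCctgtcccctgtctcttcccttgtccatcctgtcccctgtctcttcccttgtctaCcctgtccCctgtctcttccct
Phactr1: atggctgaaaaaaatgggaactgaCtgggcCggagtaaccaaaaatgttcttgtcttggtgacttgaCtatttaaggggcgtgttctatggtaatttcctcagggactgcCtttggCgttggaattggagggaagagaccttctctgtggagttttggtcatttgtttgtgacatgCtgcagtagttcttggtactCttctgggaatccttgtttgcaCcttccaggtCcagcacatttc
Zmiz1os1: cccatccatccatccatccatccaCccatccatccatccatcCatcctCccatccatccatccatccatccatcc
Celf2: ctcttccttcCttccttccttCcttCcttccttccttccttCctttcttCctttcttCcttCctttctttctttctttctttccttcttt
Gm12111: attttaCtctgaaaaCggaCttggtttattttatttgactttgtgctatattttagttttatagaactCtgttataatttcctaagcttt

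In 3 of these 5 a short unit rich in C and T repeats along the cluster. C and T made up 100.0% of the bases in the Celf2 cluster, 86.1% in Cnot2 and 77.3% in Zmiz1os1, against 51.7% in Phactr1 and 62.2% in Gm12111. The edited C followed an A or U at 5 of 11 positions in Cnot2, 2 of 3 in Zmiz1os1 and 6 of 7 in Celf2. In Gm12111 all 4 edited positions followed an A or U, and in Phactr1 5 of 9 did.

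The next 3 are the members with the most edited reads among those that hold TGCATG, the DNA form of the RBFOX motif. They lie in introns of Fmn2 (chr1:174542867-174542971, plus), Luc7l2 (chr6:38559575-38559694, plus) and Tenm2 (chr11:36640220-36640264, minus), where the motif starts at base 13, 108 and 31 of the cluster.
Fmn2: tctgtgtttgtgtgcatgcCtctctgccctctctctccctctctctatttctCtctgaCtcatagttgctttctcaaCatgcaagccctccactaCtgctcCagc
Luc7l2: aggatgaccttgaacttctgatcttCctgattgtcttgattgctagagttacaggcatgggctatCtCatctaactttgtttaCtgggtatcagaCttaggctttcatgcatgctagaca
Tenm2: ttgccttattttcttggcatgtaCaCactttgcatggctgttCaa

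Edits inside the 1078 members came mainly from the enzyme-only libraries, as the rule requires. Edited reads are reads with C-to-U at a listed site that passed the study's filter. The 3 enzyme-only libraries had 936, 820 and 1539 edited reads in members, the 3 RBFOX2-INSCRIBE libraries 226, 255 and 196, and the 3 buffer-only libraries 234, 184 and 135. The groups' values did not overlap between enzyme-only and either of the others. Per 100000 edited reads of the library, this was 399 ± 156 in enzyme-only, 69.4 ± 4.95 in RBFOX2-INSCRIBE and 83.6 ± 11.96 in buffer-only (mean ± SD, n = 3 each). The ratio to enzyme-only was 0.174 ± 0.0689 for RBFOX2-INSCRIBE and 0.209 ± 0.0870 for buffer-only (± SD from the spread over libraries).

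Replicate 3 of enzyme-only gave the highest value, and the list was built on it. All 4542 clusters of the enzyme-only list before cleaning have the coordinates of a cluster called in replicate 3. They are those replicate 3 clusters that overlap a replicate 1 cluster which itself overlaps a replicate 2 cluster, and 3748 of them overlap a replicate 2 cluster directly. A called cluster therefore lay in all 1078 members in replicate 3, in 1072 (99.4%) in replicate 1 and in 868 (80.5%) in replicate 2.

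Clusters were also called at many members in the other groups, in single libraries. A called cluster overlapped 220, 226 and 183 members in the RBFOX2-INSCRIBE libraries (17.0% to 20.96%) and 213, 176 and 157 in the buffer-only libraries (14.6% to 19.8%). At least 1 RBFOX2-INSCRIBE library had one at 500 members (46.4%), but only 2 members had one in all 3. At least 1 buffer-only library had one at 429 members (39.8%), and 13 had one in all 3. A total of 388 members (35.99%) had none in any of these 6 libraries. In 6 members the cleaning had trimmed the cluster, and 8 members still overlapped a buffer-only confident cluster.

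**Figure D1:**
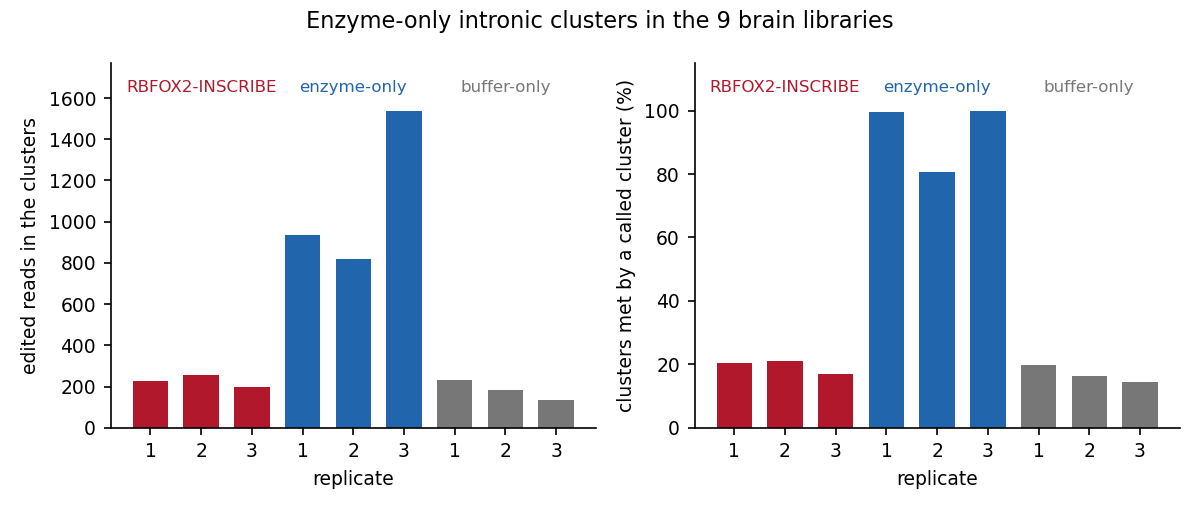
Edited reads inside the 1078 enzyme-only intronic clusters (left, number of reads) and the percent of these clusters overlapped by a cluster called in the library (right), in each of the 9 brain libraries; bars are single libraries, coloured by group, and the axes start at 0. Enzyme-only bars reach 820 to 1539 reads and 80.5% to 100.0%, as the choice of clusters requires, and the other 6 libraries 135 to 255 reads and 14.6% to 20.96%.

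Single edited cytidines seldom recurred between slices. Over the 3 enzyme-only libraries, 2738 positions inside members were edited, of which 2477 (90.5%) were listed in 1 library, 228 in 2 and 33 in all 3. Only 12 positions were edited in all 3 enzyme-only libraries and in none of the other 6. A position edited in enzyme-only was also edited in an RBFOX2-INSCRIBE library in 157 cases (5.73%) and in a buffer-only library in 108 cases (3.94%). No position was listed in all 9 libraries.

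Each member rested on few reads. The median member had 3 edited reads over the 3 enzyme-only libraries together, 760 members (70.5%) had 3 or fewer, 11 had 10 or more, and the highest had 13. In 4 members no site passed the filter in an enzyme-only library. Of the enzyme-only sites in members, 92.2% to 92.6% had a single edited read. At a site with an edit, the edited share of covering reads was 3.81% ± 0.258 in enzyme-only, 3.16% ± 0.270 in RBFOX2-INSCRIBE and 3.20% ± 0.230 in buffer-only (n = 3 each), pooled over the sites of a library. Sites without an edit are not listed, so this is not an editing rate over all cytidines.

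How often a cluster of one library meets a cluster of another gives the scale for these overlaps. Enzyme-only replicate 3 had 106844 intronic clusters. Of these, 7.22% overlapped a cluster of enzyme-only replicate 1 and 7.78% one of replicate 2. The share was 9.12%, 9.26% and 7.87% for the RBFOX2-INSCRIBE libraries and 7.66%, 5.87% and 5.83% for the buffer-only libraries. The shares for its own group lay below those for all 3 RBFOX2-INSCRIBE libraries, which had more intronic clusters (120530 to 159363, against 104454 and 117456 in the other 2 enzyme-only libraries).

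Members were short and lay in introns of moderate cover. Most of them, 829 (76.9%), were 45 nt long, with a range of 15 to 240 nt and 57699 nt in all. Cover was measured as the reads over each C of a cluster, and its median over members was 24.8 reads as a mean of the enzyme-only libraries, with a range of 3.61 to 130. Over all intronic clusters of the enzyme-only libraries the median cover per C was 9.93 to 10.3 reads, and over exonic clusters 35.5 ± 0.645 (mean of the 3 medians ± SD). The members thus had a median cover above that of intronic clusters in general and below that of exonic ones.

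The depth that the cluster lists give is a different measure and was not used as local depth. In exonic clusters cover per C was 98.2% to 98.9% of the listed depth, but in intronic clusters it was only 13.4% to 17.0%, and in members 18.6% to 26.6%. In the 58 introns that hold 3 or more members (308 members), the highest listed depth was a median of 1.17 times the lowest, while the highest cover per C was 2.09 times the lowest. Listed depth stayed within 1.5-fold in 50 of the 58 introns and cover per C in 10. The cause of this difference was not tested.

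Members of low and high cover had about the same number of edited reads. With the members ranked by cover per C and divided into 4 bins of equal size, a division chosen after seeing the data, the mean number of edited reads per member was 2.85, 2.81, 3.24 and 3.33 from the lowest to the highest bin. The edited share of covering reads at listed sites fell from 9.47% to 5.26%, 3.56% and 2.31% over the same bins. Members of low cover were also called less often in the other groups: at least 1 RBFOX2-INSCRIBE library had a cluster at 31.5%, 43.5%, 57.6% and 53.0% of the members in each bin, and at least 1 buffer-only library at 23.7%, 37.5%, 48.3% and 49.6%. In the lowest bin 56.3% of members had no cluster in any RBFOX2-INSCRIBE or buffer-only library, against 24.8% in the highest. These are descriptions, since a cluster is listed only where edits were called.

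**Figure D2:**
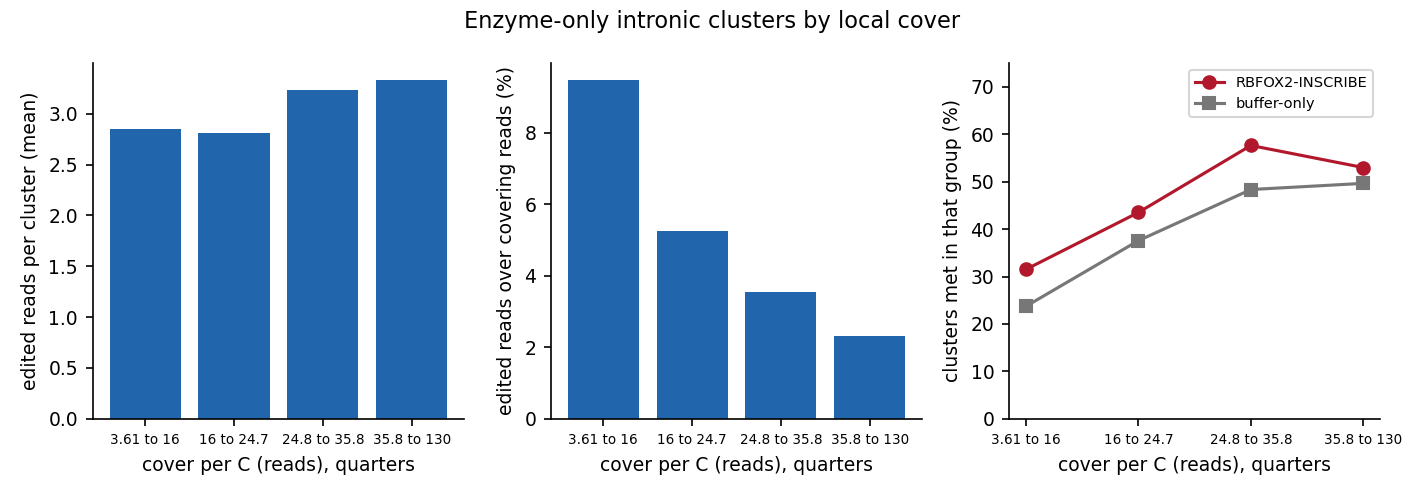
The 1078 clusters in 4 bins of cover per C (mean of the enzyme-only libraries, in reads), with the mean number of edited reads per cluster over the 3 enzyme-only libraries (left), the edited reads as a percent of the reads covering listed sites (middle), and the percent of clusters overlapped by a called cluster in at least 1 RBFOX2-INSCRIBE or buffer-only library (right). Edited reads stay between 2.81 and 3.33 per cluster, the edited share falls from 9.47% to 2.31%, and the share called in RBFOX2-INSCRIBE is 31.5% in the lowest bin and 53.0% in the highest.

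Where a member was also called in another group, its cover was more often higher there than in enzyme-only. Over the 500 members called in RBFOX2-INSCRIBE, cover per C had a median of 32.9 reads there and 28.2 in enzyme-only, and the ratio was above 1 in 362. Over the 429 called in buffer-only, the medians were 35.2 and 29.1 reads, and the ratio was above 1 in 334. For the 578 members with no called cluster in RBFOX2-INSCRIBE, cover is not listed there, and their median in enzyme-only was 21.2 reads. The ratios thus cover only members with a call in the other group. Over all intronic clusters, median cover per C was 10.1 to 12.2 reads in the RBFOX2-INSCRIBE libraries. It was 10.5 to 12.1 in buffer-only and 9.93 to 10.3 in enzyme-only. The part of cover in where members were called was not tested.

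The members lay in 586 host genes, and a small number of long neuronal genes held many of them. In 430 hosts there was 1 member, in 77 there were 2, in 79 there were 3 or more, and in 37 there were 5 or more. Protein-coding hosts held 1026 members (95.2%). The 10 hosts with the most members held 183 of them (17.0%). Long hosts were common: 354 members (32.8%, Wilson 95% interval 30.1% to 35.7%) lay in genes over 500000 nt. Of the 1075 placed between annotated exons, 383 (35.6%, 32.8% to 38.5%) lay in introns over 100000 nt. For intronic RBFOX2-INSCRIBE clusters before cleaning that met no enzyme-only cluster, these shares were 33.5% (31.6% to 35.5%) and 30.2% (28.3% to 32.1%). Such intervals cover counting error alone, as PCR copies of a molecule cannot be told apart without identifiers.

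Among regulators of RNA, Celf2, which encodes a splicing and RNA stability factor, held 29 members over its span chr2:6539694-7509563. Edited reads in these members numbered 28, 20 and 50 in the enzyme-only libraries, 4, 6 and 3 in RBFOX2-INSCRIBE and 4, 5 and 1 in buffer-only. Rbfox1, a paralog of RBFOX2 and itself a neuronal splicing regulator (chr16:5884793-7412480), held 17, with 21, 12 and 17 edited reads in enzyme-only, 0, 2 and 5 in RBFOX2-INSCRIBE and 1, 2 and 1 in buffer-only. Both genes also held 46 intronic clusters each from the RBFOX2-INSCRIBE list before cleaning that met no cluster of the enzyme-only list. This comparison set, unlike the members, was not cleared of buffer-only clusters. Both kinds of intronic cluster thus occurred in the same 2 genes, at places that by the rule do not overlap.

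Partners of A-type potassium channels came next. Kcnip4, whose product is a calcium-binding subunit of Kv4 channels (chr5:48389502-49525122), held 29 members with 27, 20 and 47 edited reads in enzyme-only, 8, 12 and 9 in RBFOX2-INSCRIBE and 8, 13 and 2 in buffer-only. Dpp10, which encodes a membrane partner of the same channels (chr1:123321471-124845815), held 28 with 17, 22 and 46, then 8, 6 and 9, then 3, 6 and 5. These 2 genes had the most edited reads in the other groups of the 15 hosts with the most members. Of the 28 in Dpp10, 27 lie outside the gene as GENCODE M21 draws it and inside the longer RefSeq gene. Median listed depth was close to median cover per C in both (34.5 and 38.8 reads in Kcnip4, 41.6 and 39.2 in Dpp10), whereas in Celf2 these were 242 and 36.6 reads.

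Other hosts with many members encode parts of synapses. Nrxn3, a presynaptic adhesion gene (chr12:88722701-90334935), held 14 members, Ptprd, which encodes a receptor phosphatase that organises synapses (chr4:75941237-78211961), 12, and Dlg2, which encodes a postsynaptic scaffold (chr7:90476188-92449247), 11. Syt1, the gene of the calcium sensor of vesicle release (chr10:108497650-109010982), also held 11. Csmd1, which encodes a membrane protein that regulates complement (chr8:15892537-17535586), and Phactr1, which encodes a partner of actin and protein phosphatase 1 (chr13:42680374-43138526), held 16 each. In these 6 genes the members had 30 to 49 edited reads over the 3 enzyme-only libraries, 5 to 13 over RBFOX2-INSCRIBE and 3 to 8 over buffer-only. Counted per length, Phactr1 and Celf2 were the densest of the 10 (3.49 and 2.99 members per 100000 nt of gene), and Ptprd (0.529) and Dlg2 (0.558) the sparsest.

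**Figure D3:**
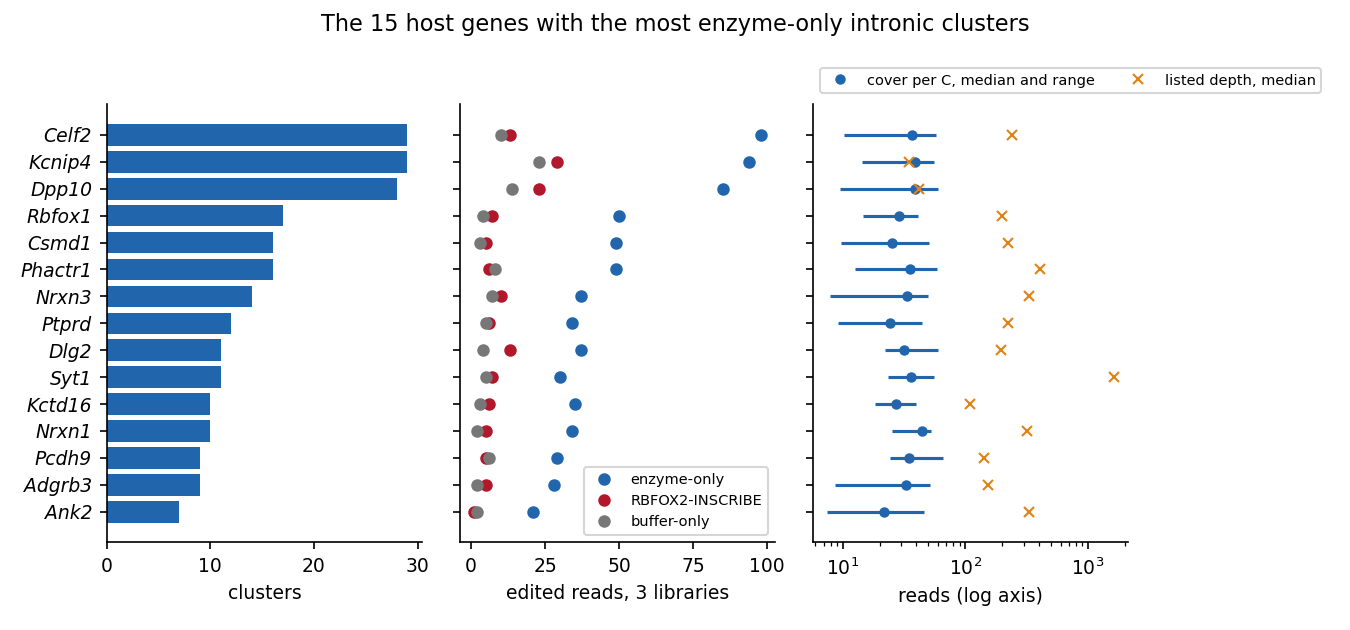
The 15 genes with the most enzyme-only intronic clusters: number of clusters (left), edited reads in them summed over the 3 libraries of each group (middle), and reads over each C of the clusters as the mean of the enzyme-only libraries (right, log axis; point, median over the gene's clusters; line, lowest to highest; cross, median of the depth in the cluster list). Celf2 (98 edited reads in enzyme-only, 13 in RBFOX2-INSCRIBE, 10 in buffer-only) heads the list, and listed depth lies above the cover range in all genes but Kcnip4 and Dpp10.

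Gene groups were described by counts alone. Synaptic adhesion genes gave 18 hosts with 72 members (6.68%), led by Nrxn3 with 14 and Ptprd with 12. Voltage-gated channels and their subunits gave 20 hosts with 69 members (6.40%), of which Kcnip4 had 29 and Kcnq3, an M-current potassium channel gene, 7. RNA-binding regulators gave 9 hosts with 58 members (5.38%), of which Celf2 and Rbfox1 held all but 12. Ionotropic glutamate receptors gave 10 hosts with 25 members (2.32%), with Grin2b at 5 and Gria1 at 4. Beside these, the RBFOX2-INSCRIBE clusters that met no enzyme-only cluster lay in the same groups at 7.37%, 6.29%, 5.71% and 1.34% of 2240, so the shares of all 4 groups were within 1 percentage point of those of the members.

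Smaller groups held few members. Phosphodiesterases and kinases gave 8 hosts with 13 members, led by Camk2a and Prkcb with 3 each. Axon guidance genes gave 8 hosts with 10, with 2 each in Plxna2 and Efna5. Cadherins gave 1 host, Pcdh9, with 9, and GABA receptors 5 hosts with 5, among them Gabrb1 and Gabrb2. Nuclear long non-coding RNAs gave 2 hosts, Snhg14 with 6 and Rian with 3. In Kcnq3 the 7 members had 21 edited reads in enzyme-only and 0 in the other 6 libraries.

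Cell type markers among the hosts were mostly neuronal. Of 5 neuron markers, 4 were hosts with 20 members: Syt1 11, Snap25 4, Map2 3 and Rbfox3 2. Neuron markers held 1.855% of the members and 1.652% of the intronic RBFOX2-INSCRIBE clusters that met no enzyme-only cluster. Camk2a, of excitatory neurons, held 3, Slc1a2, the glutamate transporter gene of astrocytes, 5, and Mbp, of oligodendrocytes, 1. Markers of inhibitory neurons, oligodendrocyte precursors, microglia, endothelial cells, choroid plexus and striatal neurons held 0. These counts are not shares of cell types, and fewer cells of a type and less RNA per cell cannot be told apart. Over whole genes, edited reads of neuron markers summed to 382 to 496 per 100000 in the 9 libraries and those of astrocyte markers to 129 to 216, so markers of the labelled tissue were present in each.

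Of the members with the most edits, at most 1 per gene, some had hardly any in the other groups and some had many. The cluster in Celf2 printed above had 2, 1 and 8 edited reads in the enzyme-only libraries and none in the other 6, where no cluster was called either. Its cover per C was 13.4 to 15.4 reads in enzyme-only. In Phactr1 the cluster had 1, 4 and 7 in enzyme-only, 1 in a single RBFOX2-INSCRIBE library and none in buffer-only. The cluster in Grin2a, which encodes an NMDA receptor subunit, had 2, 1 and 7 in enzyme-only and 1 elsewhere, and that in Jph3, a junctophilin gene, 1, 8 and 1 with 2 elsewhere. In each of these 4, 1 enzyme-only library supplied more than the other two together, so the totals of 10 to 12 rest largely on a single slice.

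In 3 others buffer-only libraries, which received no enzyme, had at least as many edited reads. In Apba2, which encodes a neuronal adaptor that binds the amyloid precursor protein, all edits lay at 1 position: 6, 1 and 3 in enzyme-only, 0, 3 and 10 in RBFOX2-INSCRIBE and 15, 1 and 0 in buffer-only, with 40.0% of covering reads edited in enzyme-only. The cluster in Pou6f1, a transcription factor gene, had 5, 0 and 5 in enzyme-only, 1, 4 and 1 in RBFOX2-INSCRIBE and 5, 3 and 2 in buffer-only. In Zmiz1os1, an antisense RNA gene, the values were 5, 2 and 4, then 3, 0 and 4, then 6, 5 and 0. The repeat in Cnot2, which encodes a subunit of the CCR4-NOT deadenylase, had 5, 3 and 5 in enzyme-only, 3, 9 and 0 in RBFOX2-INSCRIBE and 0, 2 and 1 in buffer-only.

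Other members of this rank were Gm12111, a lincRNA gene (10 edited reads in enzyme-only, 3 in RBFOX2-INSCRIBE, 1 in buffer-only), Gm21811, annotated as a pseudogene (10, 3 and 4), and Taf15, which encodes an RNA-binding protein of the FET family (9, 3 and 0). Reads of Gm21811 may be shared with near-identical copies, so its values are uncertain. The motif-bearing members had fewer edits: 1, 1 and 4 in Fmn2, a formin gene, 1, 2 and 3 in Luc7l2, which encodes a factor of the U1 snRNP, and 2, 1 and 1 in Tenm2, which encodes a synaptic adhesion protein. Of these 3, Tenm2 had none in the other 6 libraries, while Fmn2 had 2 in RBFOX2-INSCRIBE and Luc7l2 3 in RBFOX2-INSCRIBE and 2 in buffer-only.

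At the edge of the rule, 8 members touched an RBFOX2-INSCRIBE cluster with a gap of 0 nt. The 3 of them with the most edited reads lay in Hmbox1 (1, 1 and 2 edited reads in enzyme-only, 1, 2 and 0 in RBFOX2-INSCRIBE), 9330159F19Rik (1, 1 and 1, then 1, 1 and 0) and Slc6a17, a vesicular transporter gene (1, 1 and 1, then 0, 1 and 0). The 3 intronic clusters left out by the smallest overlap, 15 nt each, lay in Stk25 (0, 1 and 1, then 1, 1 and 0), Nova1 (no filtered site in any library) and Cadps (1, 1 and 1, then 0, 1 and 0). A total of 22 members lay within 100 nt of an RBFOX2-INSCRIBE cluster.

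The base before the edited C is given as a description, since the enzyme-only edits inside the members are those that chose them. Of the edited sites in members, 62.0%, 64.8% and 60.7% followed an A or U in the enzyme-only libraries, 56.0%, 47.7% and 55.9% in buffer-only, and 68.4%, 59.6% and 67.1% in RBFOX2-INSCRIBE. Every enzyme-only library lay above every buffer-only library, and the enzyme-only and RBFOX2-INSCRIBE libraries overlapped. Enzyme-only exceeded buffer-only by 9.32 percentage points (62.5% ± 2.09 against 53.2% ± 4.77, mean ± SD, n = 3 each), and RBFOX2-INSCRIBE exceeded enzyme-only by 2.51 points (65.0% ± 4.71), which is less than the spread between its libraries. Of all cytidines in the members, edited or not, 55.5% follow an A or U.

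By single bases, an A came before 29.0% ± 1.78 of the edited Cs in enzyme-only and 22.2% ± 0.960 in buffer-only, and a C before 23.6% ± 1.87 and 29.6% ± 0.414. The number of sites behind each share was 756 to 1416 in enzyme-only libraries, 127 to 184 in buffer-only and 167 to 218 in RBFOX2-INSCRIBE. With so few sites, the Wilson 95% interval of a single buffer-only library spanned 39.9% to 55.6% at the lowest and 48.8% to 63.0% at the highest.

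Few members held the RBFOX motif. TGCATG, searched on the RNA's own strand, was in 20 of 1078 members (1.86%; Wilson 95% interval 1.20% to 2.85%), and on the other strand in 26 (2.41%). It was in 250 of the 2240 RBFOX2-INSCRIBE clusters that met no enzyme-only cluster (11.2%; 9.92% to 12.5%), with 4.78% on the other strand, and in 1 of the 66 clusters found in both. Taking clusters of 45 nt only, the share was 12 of 829 members (1.45%; 0.830% to 2.51%) and 88 of 1538 of the RBFOX2-INSCRIBE clusters (5.72%; 4.67% to 6.997%). In all intronic clusters of 45 nt, the shares were 1.64% to 1.70% in the enzyme-only libraries, 1.60% to 1.67% in buffer-only and 2.28% to 2.503% in RBFOX2-INSCRIBE. The members' interval takes in the shares of all 9 libraries, and the interval of the RBFOX2-INSCRIBE clusters none of them.

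With 100 nt added on each side, TGCATG was in 95 members (8.81%) and on the other strand in 99 (9.18%), against 28.6% and 14.4% for the RBFOX2-INSCRIBE clusters. The shorter GCATG, which every TGCATG contains, was in 50 members (4.64%) and in 16.8% of the RBFOX2-INSCRIBE clusters. Runs of AAAAAA were in 10 members and of TTTTTT in 31. Such matches are a description of the reference and not evidence of binding.

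Members were rich in cytidine and in pyrimidine tracts. C made up 30.3% of the bases of members of 45 nt, 28.2% in RBFOX2-INSCRIBE clusters of that length, and 25.6% to 25.9% in all intronic clusters of 45 nt of the enzyme-only libraries. At least 80% of the bases were C or T in 60 of 829 such members (7.24%; 5.66% to 9.21%) and in 5.85% of the RBFOX2-INSCRIBE clusters (4.79% to 7.14%), against 2.55% to 2.66% of all intronic clusters of the enzyme-only libraries and 2.96% to 3.21% of those of buffer-only. This measure was chosen after the sequences were seen, and neither a test nor a cause was examined. Repeats marked by soft-masking covered at least 1 base of 436 members (40.4%) and all bases of 78 (7.24%).

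**Figure D4:**
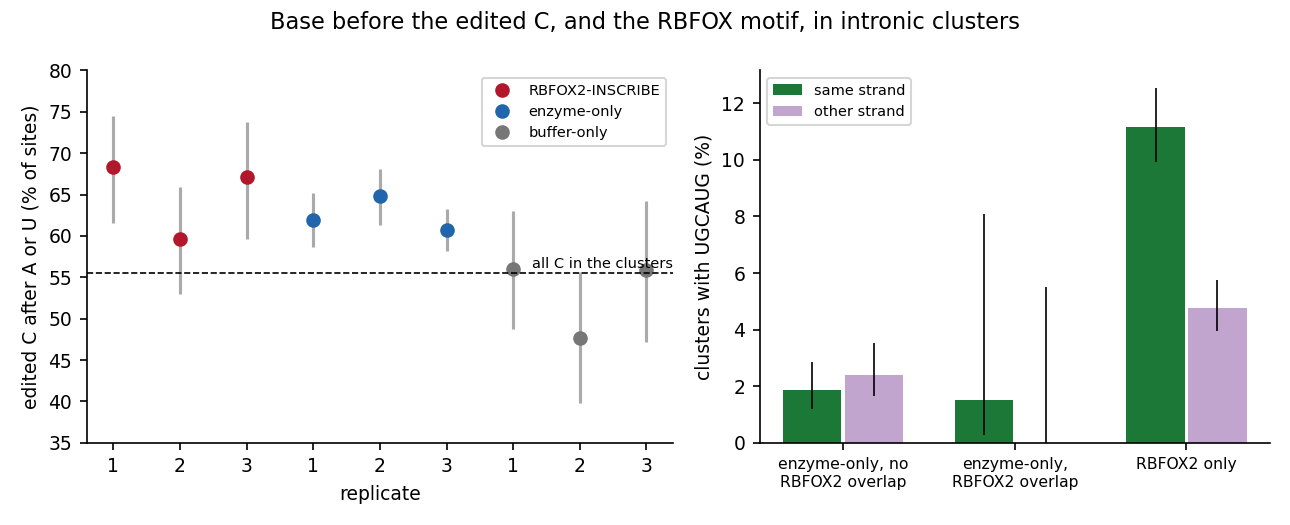
Percent of edited sites inside the 1078 clusters that follow an A or U, in each of the 9 libraries (left; points are libraries, lines Wilson 95% intervals for counting error, and the dashed line all cytidines of the clusters at 55.5%), and percent of intronic clusters with the RBFOX motif (TGCATG in DNA) on either strand in 3 sets (right; bars with Wilson 95% intervals). Enzyme-only points lie at 60.7% to 64.8%, above the buffer-only points at 47.7% to 56.0%. The motif share is 1.86% in the 1078 clusters and 1.52% in the 66 shared clusters. It is 11.2% in the 2240 RBFOX2-INSCRIBE clusters, before cleaning, that met no cluster of the enzyme-only list (drawn as RBFOX2 only).

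Members lay deep in introns. The distance to the nearest splice site had a median of 4571 nt, and 192 of 1075 (17.9%; 15.7% to 20.3%) lay within 500 nt of one. For the RBFOX2-INSCRIBE clusters that met no enzyme-only cluster, the median was 3218 nt and the share 20.3% (18.7% to 22.0%). The median intron was 24858 nt long for members and 19056 nt for the RBFOX2-INSCRIBE clusters. Within the host gene, 328 members (30.4%; 27.7% to 33.2%) lay in the first 25% of its length and 252 (23.4%; 20.9% to 26.0%) in the last 25%, against 24.9% (23.1% to 26.7%) and 27.0% (25.2% to 28.9%) of the RBFOX2-INSCRIBE clusters. These are counts over clusters of 1 list per group, with no spread between slices, and were not tested. Exons drawn on the same strand overlapped 2 members in GENCODE M21 and 100 in RefSeq, so a part of the members is exonic in some annotated transcript.

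Many host genes held both kinds of cluster. Of the 586 hosts, 296 (50.5%) also held an intronic RBFOX2-INSCRIBE cluster that met no cluster of the enzyme-only list, which is 31.6% of the 936 hosts of such clusters. These clusters were not absent from the other groups. A called cluster overlapped 17.1% to 17.99% of all 2240 in the enzyme-only libraries and 14.5% to 17.4% in the buffer-only libraries. These 296 hosts held 753 members (69.9%). In 29 hosts there was also one of the 66 clusters found in both groups.

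Whether the host genes' share of edited reads changed elsewhere along their length was tested on edited reads outside the members. The rule did not use these reads, but leaving the members out removes positions chosen for their edits in enzyme-only. This lowers the hosts' enzyme-only counts, which favours calls higher with the antibody and calls lower than in buffer-only. Edited reads at filtered sites were added up for each gene, within its GENCODE span, and tested with edgeR's quasi-likelihood test in 1 fit of the 9 libraries over 6356 genes, of which 563 were hosts, with 1054 members. Genes with a Benjamini-Hochberg adjusted p under 0.05 over all 6356 are called. Levels are CPM, the edited reads of a gene scaled to 1000000 per library with edgeR's TMM factors. With sites inside the members kept, 17 hosts were called in RBFOX2-INSCRIBE against enzyme-only (19 without them). In enzyme-only against buffer-only 12 were called both ways. Snap25 (edgeR adjusted p = 0.109) and Kcnd2 (0.053) lost their calls when these sites were kept.

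With the antibody, 19 of the 563 hosts were called higher than in enzyme-only and 0 lower. This is 3.37% of hosts, where 0.944% of all genes tested were called higher and 0.0157% lower. At an unadjusted p under 0.05, 119 hosts were higher and 24 lower, together 143 of 563, where 771 of all 6356 genes passed. DESeq2's Wald test gave an adjusted p to only 772 genes and called 85 of them, among them 44 of 297 hosts, all higher, so its count stands on a smaller base than edgeR's. Ranges of the groups did not overlap in 147 hosts (26.1%), against 16.3% of all genes tested. The median log2 change was 0.10 over hosts and -0.01 over all genes.

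Hosts had more edited reads than the genes tested as a whole, and the shares called moved with level. Their median level on edgeR's log2 CPM scale was 8.02, against 6.46 for all genes. Among the 636 genes of the highest level, 263 were hosts. In that bin 5.70% of hosts and 4.56% of all genes were called, and the median log2 changes were 0.19 and 0.18. These are 15 of the 263 hosts and 29 of the 636 genes. The 636 genes include the hosts, so the values of all genes contain the hosts' own. The remaining genes of the bin were not summarised separately.

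The 6 hosts with the smallest p are described here. Ppp3ca, the gene of the catalytic subunit of calcineurin, had 361, 351 and 385 edited reads outside its members in RBFOX2-INSCRIBE, 166, 191 and 193 in enzyme-only and 214, 155 and 156 in buffer-only (log2 change from enzyme-only to RBFOX2-INSCRIBE 0.83 ± 0.12 SE, edgeR adjusted p = 3.017e-06). Pde10a, which encodes a phosphodiesterase abundant in striatal neurons, had 370, 408 and 481 against 174, 232 and 215 (0.86 ± 0.13, edgeR adjusted p = 4.802e-06). For both, the 3 values with the antibody lay above the 3 without it. Inside the 2 members of Ppp3ca the enzyme-only libraries had 7 edited reads, RBFOX2-INSCRIBE 0 and buffer-only 1, and inside the member of Pde10a 4, 0 and 0.

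The scaffold genes Shank1 (213, 132 and 141 against 80, 87 and 69; 0.87 ± 0.16) and Shank3 (112, 111 and 79 against 51, 45 and 45; 0.93 ± 0.18) were called higher, with edgeR adjusted p = 3.329e-04 and 0.001539. Tenm2, whose motif-bearing member is printed above, rose by 0.64 ± 0.11 (533, 616 and 562 against 289, 360 and 335; edgeR adjusted p = 7.559e-05). Dync1i2, which encodes a dynein chain, rose by 1.14 ± 0.22 (61, 77 and 88 against 31, 33 and 28; edgeR adjusted p = 9.12e-04). In all 4 the ranges of the groups did not overlap. All 6 genes stayed called when any 1 of the 6 libraries compared was left out.

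The other 13 hosts called higher had log2 changes of 0.33 to 1.497, and each lost its call without at least 1 library. Rbfox1, with 17 members the one of the 10 leading hosts to be called, had 1836, 1803 and 1683 edited reads outside its members in RBFOX2-INSCRIBE and 1164, 1369 and 1240 in enzyme-only (0.33 ± 0.08, edgeR adjusted p = 0.03). Its call ended without RBFOX2-INSCRIBE replicate 3 (edgeR adjusted p = 0.17), enzyme-only replicate 1 (0.189) or enzyme-only replicate 2 (0.0567). Kcnip4, Celf2 and Phactr1 were not called. The number of hosts called was 8 without enzyme-only replicate 1, 11 without enzyme-only replicate 2 and 10 without RBFOX2-INSCRIBE replicate 3.

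By gene group, 2 of 18 synaptic adhesion hosts were called higher (Tenm2 and Lrrc4c), 2 of 20 channel hosts (Kcnd2 and Cacnb2), 1 of 9 RNA-binding hosts (Rbfox1), 1 of 8 phosphodiesterase and kinase hosts (Pde10a), 1 of 4 GABA receptor hosts (Gabrg3) and 1 of 4 neuron markers (Snap25). With edgeR 0 were called in the 10 glutamate receptor hosts, the 8 axon guidance hosts, the 2 nuclear RNA hosts, the cadherin host and the hosts that mark other cell types. Median log2 changes were 0.16 over synaptic adhesion hosts, 0.20 over channels, 0.13 over RNA-binding hosts and 0.18 over glutamate receptors, beside 0.10 over all hosts. Over all genes of the highest level bin the median was 0.18. Beside these counts, 3.37% of all hosts and 5.70% of hosts in the highest level bin were called, and 0.944% of all genes were called higher.

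Cover was higher with the antibody for some of these genes and not for others, and some marker lists differed between the groups. The mean number of reads covering a listed site was 2.74 times as high in RBFOX2-INSCRIBE as in enzyme-only for Ppp3ca, 1.52 for Pde10a, 1.78 for Shank1, 1.09 for Tenm2, 1.02 for Dync1i2 and 0.811 for Shank3. Edited reads of 8 striatal neuron markers per 100000 had a range of 52.0 to 90.8 with the antibody, 35.4 to 44.2 without it and 22.0 to 35.3 in buffer. Those of 5 oligodendrocyte markers had ranges of 36.9 to 48.7, 60.4 to 62.8 and 46.9 to 57.7. For astrocyte markers the ranges with and without the antibody overlapped (161 to 216 and 175 to 193). Those for inhibitory neuron markers overlapped too (10.6 to 23.1 and 10.8 to 21.3). The part of cover and of marker genes in the calls was not tested.

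**Figure D5:**
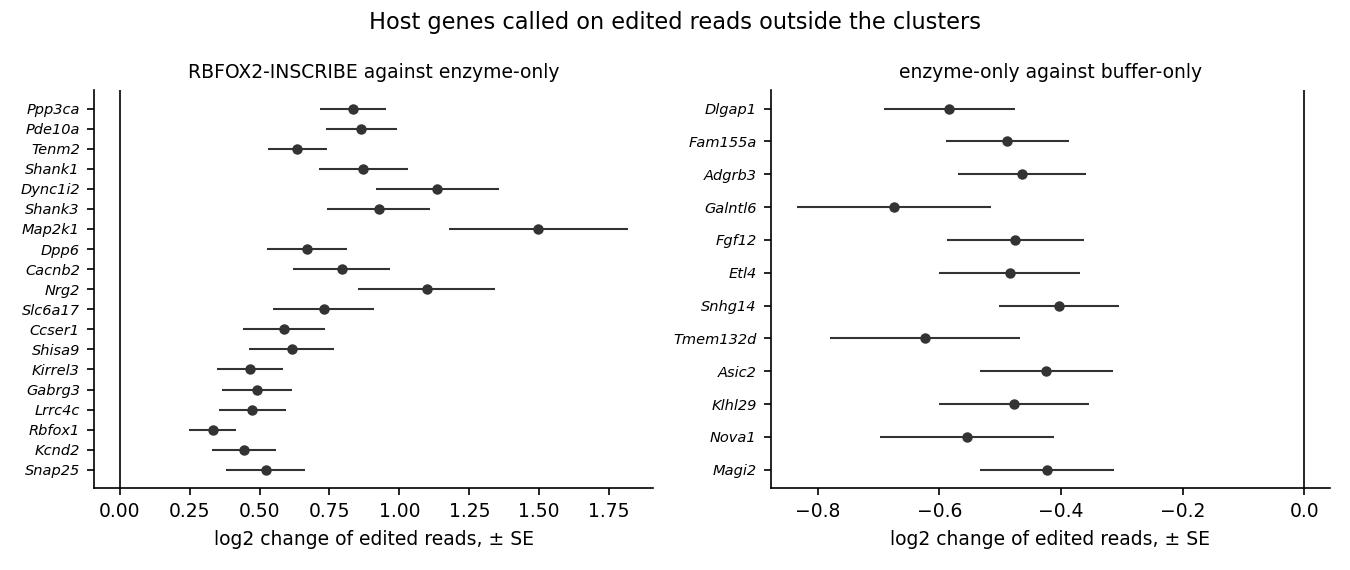
Log2 change of edited reads outside the clusters, with its standard error, for the 19 host genes called in RBFOX2-INSCRIBE against enzyme-only (left) and the 12 called in enzyme-only against buffer-only (right), by edgeR at an adjusted p under 0.05, ordered by p. All 19 lie above 0, up to 1.497 in Map2k1, and all 12 below 0, down to -0.67 in Galntl6.

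Against buffer-only, 12 of the 563 hosts were called lower in enzyme-only and 0 higher outside the members. This is 2.13% of hosts, where 0.378% of all genes tested were called lower and 0.283% higher. At an unadjusted p under 0.05, 90 hosts were lower and 19 higher, together 109 of 563, where 688 of all 6356 genes passed. DESeq2's Wald test gave an adjusted p to 1670 genes and called 35, among them 14 of 412 hosts, all lower. Ranges did not overlap in 146 hosts (25.9%), against 15.8% of all genes. The median log2 change was -0.14 over hosts and -0.01 over all genes. In the bin of the 636 genes of highest level these medians were -0.19 and -0.18. All 12 called hosts lay in this bin, where 4.56% of hosts and 3.62% of all genes were called in either direction. The share of all genes includes the hosts: 20 of the 636 genes were called lower, 12 of them hosts. The comparison shares its enzyme-only libraries with the one above.

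Of the 12, the 6 with the smallest p are described here. Dlgap1, a postsynaptic scaffold gene with 1 member, had 1571 ± 122.7 CPM in enzyme-only and 2349 ± 181 in buffer-only (-0.58 ± 0.11, edgeR adjusted p = 0.00131). Fam155a, which encodes a subunit of the NALCN sodium leak channel complex and holds 6 members, had 1735 ± 51.8 against 2433 ± 47.2 (-0.49 ± 0.10, edgeR adjusted p = 0.005369). Adgrb3, an adhesion receptor gene of synapses with 9 members, had 1518 ± 98.8 against 2093 ± 70.5 (-0.46 ± 0.10, edgeR adjusted p = 0.0156). In all 3, every buffer-only library lay above every enzyme-only library in CPM, which is a share of the library's edited reads. Unscaled, the ranges overlapped: Dlgap1 had 343, 407 and 375 edited reads in enzyme-only and 540, 366 and 352 in buffer-only. Fam155a had 415, 418 and 409 against 523, 397 and 374, and Adgrb3 337, 393 and 357 against 447, 328 and 337. Buffer-only libraries held 193252 to 262593 edited reads at filtered sites, and enzyme-only libraries 267277 to 290808.

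Galntl6, of the family of enzymes that start O-glycosylation (-0.67 ± 0.16), Fgf12, which encodes a modulator of sodium channels (-0.47 ± 0.11), and Etl4 (-0.48 ± 0.12) were the other 3 (edgeR adjusted p = 0.0257 to 0.026). By gene group, 1 of 9 RNA-binding hosts (Nova1) and 1 of 2 nuclear RNA hosts (Snhg14) were called lower, beside 2.13% of all hosts. The number called changed with each library left out: 0 of the 12 remained without buffer-only replicate 1 (edgeR, with 87 hosts at an unadjusted p under 0.05), 4 each without enzyme-only replicate 1, enzyme-only replicate 2 or buffer-only replicate 3, 5 without enzyme-only replicate 3 and 6 without buffer-only replicate 2. The mean cover of listed sites in enzyme-only was 0.955 times that in buffer-only for Dlgap1, 0.801 for Fam155a and 0.896 for Adgrb3, and its part was not tested.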

How the data were processed

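Per the labels and the study's methods, the authors trimmed reads (cutadapt), aligned them with STAR 2.5.2 to mm10, called C-to-U sites with SAILOR and clusters with FLARE. The deposited site lists give other values (edited and covering reads, joined) and a confidence score. The deposited cluster lists give counts of edited and covering reads, the edited fraction, a cluster score and a depth signal, all made by the authors' cluster caller. As in the study, only sites whose score exceeded 0.5 and whose edited fraction was under 0.8 entered.

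Members and lists were chosen with earlier results of these data known. The genes named are the 10 hosts with the most members, the 12 members, 1 per gene, with the highest number of edited reads, the 3 holding TGCATG with the most, the 3 nearest to the rule's edge on each side, the 6 called hosts with the smallest p per direction and the 2 leading hosts of each list. Exceptions are members of a list or call set of 5 or fewer, named in full, and Map2k1, which were named after their values were seen. Of the 12 members, 1 is not reported here.

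Hosts come from GENCODE M21 or, for Dpp10 beyond its GENCODE span, RefSeq GRCm38.p6, which also gave the sequences. Edited reads outside members, at sites in exactly 1 gene on a strand, were tested with edgeR 4.0.16 (TMM, filterByExpr, 9 libraries in 1 fit), and with DESeq2 1.42.0 as an alternative, in R 4.3.3. On simulated data for RBFOX2-INSCRIBE against enzyme-only over 6356 genes, 51% of the 2-fold and 93% of the 4-fold changes put in were called by edgeR, with 6.49% false calls. Filtered sites held 193252 to 339567 edited reads per library. The exact two-sided permutation planned for shares of sites after A or U (Python 3.11.15; p = 0.1 and 0.5, smallest possible 0.1) is not read as a test, since the edits compared also chose the members. In total 0 columns of per-sample values were left unused in these tables. The HEK293XT libraries were not used here.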

Additional observations from a re-analysis of the deposited data

How the results depend on the processing

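The number of members was 1056 to 1092 under the other overlap rules and RBFOX2-INSCRIBE lists tried, against 1078. Hosts called in RBFOX2-INSCRIBE against enzyme-only numbered 43 with every listed site (1 of them lower) and 44 with DESeq2's Wald test, against 19. They numbered 17 to 28 under the other settings that kept all libraries of both groups. They ranged from 8 to 21 when 1 library was left out. In enzyme-only against buffer-only they numbered 20 with every listed site (4 of them higher) and 7 with no filter on low counts, against 12, and 11 to 14 under the others. They ranged from 0 to 6 when 1 library was left out. The causes were not tested. For the 31 called genes, 298 of 400 alternatives kept the direction and the call, 102 kept the direction and lost the call, and 0 changed direction. For 3 calls DESeq2 gave no adjusted p.

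Enzyme-only exceeded buffer-only in sites after A or U by 9.45 to 11.73 points under the other site settings and 6.57 to 10.71 without 1 library. RBFOX2-INSCRIBE exceeded enzyme-only by 1.46 to 3.504 and 0.841 to 5.21 points. The ratio of edited reads to enzyme-only ranged from 0.152 to 0.223 for RBFOX2-INSCRIBE and 0.183 to 0.269 for buffer-only without 1 library.

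Samples with the same replicate number did not deviate together (r of -0.05 to 0.09). With the replicate number as a block (replicate block), 22 and 13 hosts were called. Of the enzyme-only sites in members, 92.2% to 92.6% have 1 edited read, and no single member was tested.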
